A study of Mus musculus with 12 samples.

Results

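The genes described here are 35 enzymes and regulators of cholesterol and fatty acid synthesis, out of 49548 Ensembl genes counted in the lumbar spinal cord of 12 mice at 30 days of age. They were chosen by name from textbook roles and matched by mouse symbol to an Ensembl ID, and all 35 were found. The 8 MFN2 mice are hemizygous MitoCharc1 animals (the transgene Tg(Eno2-MFN2*R94Q)L51Ugfm on a B6;D2 background), a model of Charcot–Marie–Tooth disease type 2A. They carry a human MFN2 transgene with the R94Q change under the neuron-specific rat Eno2 promoter and keep their own mouse Mfn2, so the mutant protein is made mainly in neurons. The 4 WT mice carry no transgene, and are given as C57BL/6 in the sample labels and as littermates in the study's methods. No mouse was treated. Each mouse gave 1 library of poly(A) RNA, with 19453238 to 23564568 counts in the WT libraries and 19359454 to 26738930 in the MFN2 libraries, so that even the member with the lowest count in any library, Fdps, rested on 32 counts there.

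Cholesterol is built from acetyl-CoA through the mevalonate pathway and then through squalene, lanosterol and a series of sterol intermediates. Fatty acids are built from the same acetyl-CoA by carboxylation and chain assembly, and are then desaturated and elongated. Sterol regulatory element binding proteins, encoded by Srebf1 and Srebf2, are carried by Scap from the endoplasmic reticulum to the Golgi when sterol is scarce, while Insig1 holds them back. Cholesterol does not cross the blood–brain barrier, so the cord makes its own, and oligodendrocytes, the myelinating glia of the central nervous system, use much of it. In the mouse, myelin is still being laid down in the weeks before and after the age studied here.

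The MFN2 libraries fall into 2 runs of library numbers, 41 to 43 and 72 to 76, and the WT libraries are 44 to 47. The first run therefore holds both genotypes, but the second run holds MFN2 mice only, so in libraries 72 to 76 genotype and run cannot be told apart. Library 43 stood apart from the other 11. Its summed level of 10 forebrain genes was 4770 CPM (the count of a gene relative to the TMM-scaled total of its library), against 132 ± 14.6 CPM (SD, n = 4) in WT mice. Camk2a, the most abundant forebrain gene on that list, reached 1920 CPM in library 43, and averaged 95.7 CPM in WT mice. The 8 caudal Hox genes, which mark the lower levels of the cord, summed to 25.4 CPM in library 43 and to 158 ± 10.7 CPM (n = 4) in WT mice. Library 43 thus did not match lumbar cord, the tissue named in the study's methods, on these markers. Medians over the members that rest on that library are given with and without it. Values of single genes in libraries 41 to 43 include it unless stated otherwise. Mouse Mfn2 itself, whose count may also hold reads of the human transgene, had a log2 fold change of -0.047 in the MFN2 mice (adjusted p = 0.733, edgeR with Benjamini-Hochberg adjustment), and so does not check the genotype labels.

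The 35 members together took 0.82% ± 0.0501 (SD, n = 4) of all counts in WT mice and 0.721% ± 0.161 (n = 8) in MFN2 mice. Their levels in WT mice had a coefficient of variation from 3.08% (Mvk) to 22.5% (Fdps) and a median of 8.1%, with no value for other genes set beside it. Per kilobase of exons, Scd2 was the most abundant member at 561 ± 44.2 CPM per kb (SD, n = 4). This stearoyl-CoA desaturase puts the first double bond into saturated fatty acids, and its relative Scd1 followed Hmgcs1 in the order at 144 ± 7.39 CPM per kb. Hmgcs1, the cytosolic HMG-CoA synthase that opens the mevalonate pathway, was at 186 ± 18.7 CPM per kb. Acly, which supplies cytosolic acetyl-CoA from citrate, was at 75.6 ± 9.25 CPM per kb, and Fasn, the fatty acid synthase, at 61.0 ± 3.97 CPM per kb. Among the enzymes from squalene onwards, Cyp51, the lanosterol demethylase, was the most abundant at 44.5 ± 5.16 CPM per kb, close to Insig1, the most abundant of the regulators, at 43.7 ± 2.43 CPM per kb. The lowest in their groups were Fdps at 0.494 ± 0.111, Tm7sf2 at 2.80 ± 0.0931, Acaca at 9.74 ± 0.68, Scap at 9.80 ± 0.528 and Elovl1 at 13.5 ± 1.46 CPM per kb. Acaca and Scap, like Insig1 and Cyp51, are neighbours that did not differ beyond their spread. The same holds for Acaca and Acss2, of the same group, which was at 10.2 ± 0.959 CPM per kb. Exons of all annotated transcripts were merged for these lengths, so the order depends on the annotation.

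**Figure D1:**
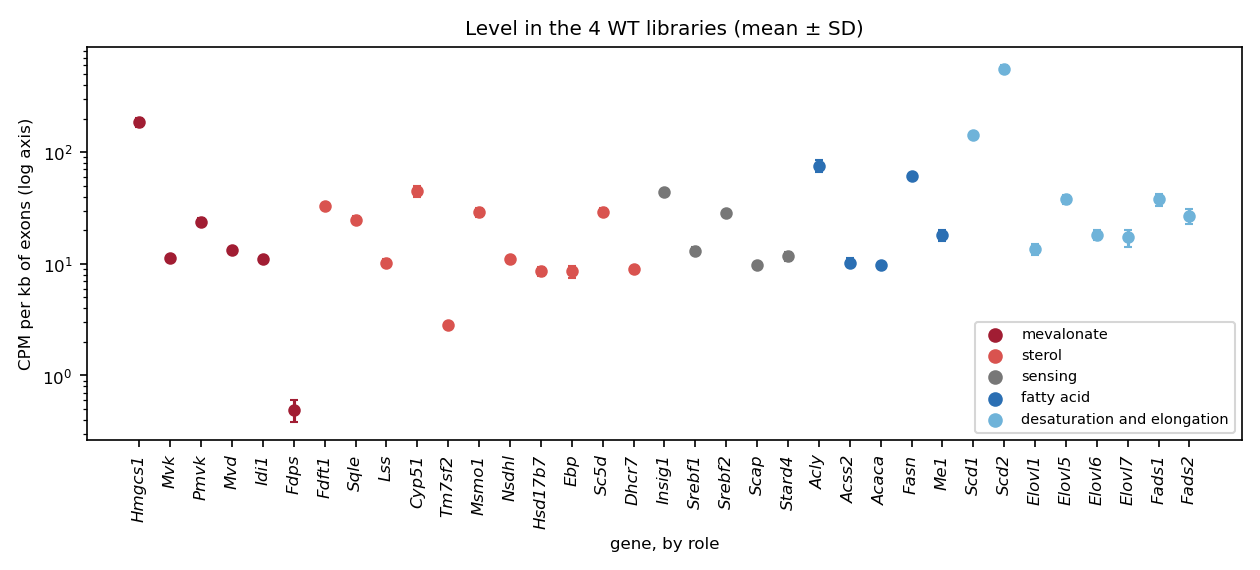
Level of each of the 35 genes in the 4 WT libraries, in CPM per kb of exons on a log axis, with points at the mean, bars at the SD and colours for the role of the gene. Scd2 stands at the top at 561 CPM per kb and Fdps at the bottom at 0.494 CPM per kb.

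The value of Fdps, the farnesyl diphosphate synthase, is uncertain. On GRCm38 the gene lies on the minus strand at chr3:89093588-89101959 and shares 1124 exon bases on the same strand with the gene model Gm43738, which was at 0 counts in all 12 libraries. Tm7sf2, a sterol C14 reductase, likewise shares 532 exon bases on its own strand with Vps51. Of the 35 members, 14 share exon bases with another gene, 4 of them on the same strand. The study names a stranded library kit, but the strand setting of the counts is not given in the sources used here. Reads from overlapping genes, on either strand, therefore cannot be told apart here. Scd1 and Scd2 are close relatives that lie near each other on chromosome 19, and how reads shared by both were assigned is not known.

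With all 8 MFN2 mice set against the 4 WT mice, 0 of the 35 members passed a false discovery rate (FDR) of 0.05 in edgeR's quasi-likelihood test, as did 0 of 15942 genes tested (0.0%). At an unadjusted p under 0.05 there were 4 members, Acaca, Me1, Srebf1 and Scd2, beside 15.0% of all genes tested. DESeq2 also called 0 members, although it called 200 genes in all. The 5 members with the lowest p were lower on average in MFN2 mice. Acaca, the acetyl-CoA carboxylase that commits carbon to fatty acids, had a log2 fold change of -0.36 ± 0.15 (SE), and the NADPH-making malic enzyme Me1 one of -0.31 ± 0.13. Srebf1, Scd2 and Scd1 had values of -0.36 ± 0.16, -0.40 ± 0.18 and -0.48 ± 0.25. The adjusted p of these 5 genes ran from 0.302 to 0.372 in the same edgeR test with Benjamini-Hochberg adjustment. The median log2 fold change of the 35 members was -0.11, beside 0.0038 over all genes tested, and 26 members had a negative value, of which 4 turned positive with scaling by library size alone. That median was -0.064 without library 43, -0.18 without library 76, -0.062 with scaling by library size alone and -0.26 with a term for the run of library numbers. No member's libraries were separated by genotype, as were those of 2.04% of all genes tested.

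The mean over the 8 MFN2 mice joined libraries that differed from each other. Libraries 41 to 43 set against the WT libraries of the same run gave 0 of 35 members past the FDR, with 0.00658% of genes called, and 0 members at an unadjusted p under 0.05 (7.12% of all genes). DESeq2 called 0 members there and 5 genes in all. The median log2 fold change of the members there was -0.24, and 31 of 35 were negative. Without library 43 the median was 0.012, so its sign rested on that library, and without library 41 it was -0.47. Libraries 72 to 76 set against the same WT libraries gave 8 of 35 members past the FDR (22.9%), 2 higher and 6 lower, beside 23.8% of all 15743 genes tested, 11.1% higher and 12.7% lower. With scaling by library size alone, 2822 of 4167 calls were higher, against 1746 of 3746 with TMM, and 8 members were called, with Fdft1 in place of Scap. The share of members called was thus close to that of genes at large. Their median log2 fold change was -0.078, but this ran from -0.0049 without library 74 to -0.15 without library 76. It was -0.0081 without library 72, -0.034 without library 73, -0.043 without WT library 45, -0.019 without WT library 47 and -0.0091 with scaling by library size alone. All 3 comparisons share the 4 WT libraries and are not independent.

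**Figure D2:**
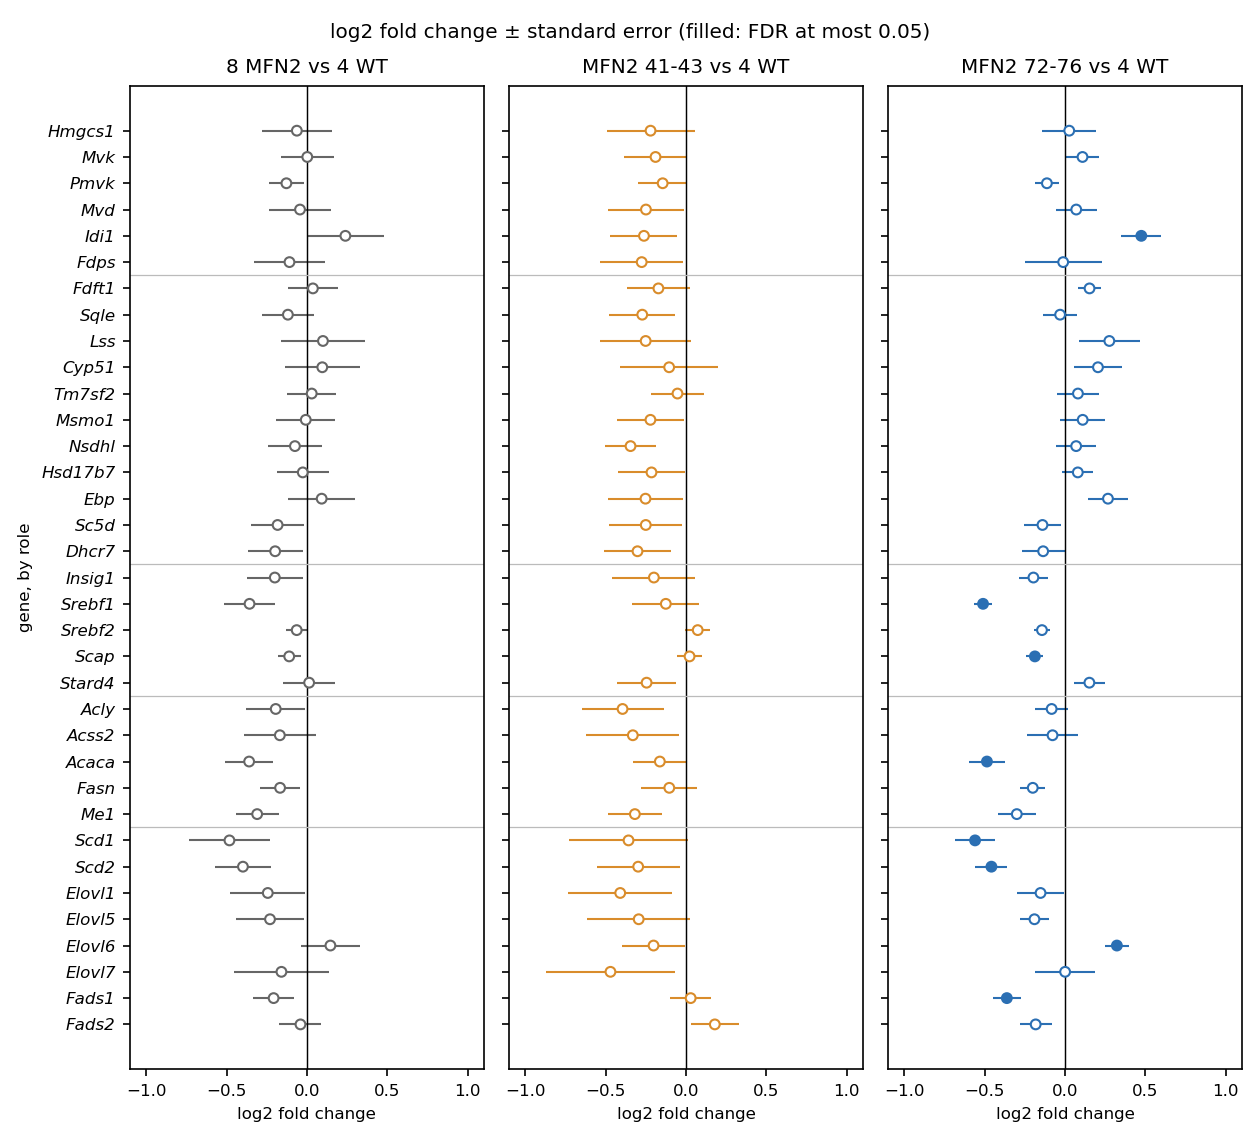
The log2 fold change of each member (points) with its standard error (bars), in 3 panels for all 8 MFN2 mice, libraries 41 to 43 and libraries 72 to 76, each against the same 4 WT libraries. Filled points passed an FDR of 0.05, which 8 genes did in the right panel and 0 in the other panels.

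The members were then counted by role in libraries 72 to 76 against WT, where 11.1% of all genes tested were higher and 12.7% lower. Of the 17 genes from Hmgcs1 to cholesterol, 1 was higher and 0 were lower, and 12 of 17 had a positive log2 fold change, with a median of 0.080. This direction rested on library 76. Without it 7 of 17 were positive, with a median of -0.032, and 1 was called higher and 2 lower. The median was 0.14 without library 74, 0.053 without WT library 46 and 0.15 with scaling by library size alone. Of the 13 genes of fatty acid synthesis, desaturation and elongation, 1 was higher and 4 were lower, and 11 of 13 were negative, with a median of -0.19. Without library 76, 1 was higher and 7 were lower, with a median of -0.25, and with scaling by library size alone the median was -0.12. Of the 5 genes of sterol sensing and transport, 2 were lower, with a median of -0.19 (-0.12 with scaling by library size alone). That count was 3 without library 72, 76 or WT library 47, with DESeq2, with the current edgeR test and with no filter, and 1 without library 73, 74, 75 or WT library 45 and with scaling by library size alone. In libraries 41 to 43, all 17 sterol pathway genes and 11 of the 13 fatty acid genes were negative, with medians of -0.25 and -0.30. Without library 43, 8 of the 17 and 6 of the 13 were negative, with medians of 0.012 and 0.0037. Without library 41 the medians were -0.47 and -0.57. These are descriptions of groups formed by role, and the difference between the groups was not tested.

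Among the 6 mevalonate enzymes, Idi1 was the gene that passed in libraries 72 to 76, beside 23.8% of all genes tested. Idi1 isomerizes isopentenyl diphosphate, which makes the unit that starts chain assembly, and lies on the plus strand at chr13:8885501-8892451 (GRCm38). It was at 36.5, 38.4, 37.9 and 42.1 CPM in WT libraries 44 to 47, at 42.5, 32.6 and 20.9 CPM in MFN2 libraries 41 to 43, and at 47.5, 47.5, 46.5, 56.0 and 72.2 CPM in MFN2 libraries 72 to 76. Every library of the second run lay above every WT library, while those of the first run lay on both sides. The log2 fold change of libraries 72 to 76 against WT was 0.47 ± 0.12 (SE), or 1.39-fold, with an adjusted p of 0.0204 (edgeR with Benjamini-Hochberg adjustment). It was -0.26 ± 0.21 for libraries 41 to 43 (adjusted p = 0.674 in the same test). Library 43 had the lowest level there, at 20.9 CPM, while libraries 41 and 42 lay just above and below the WT range. Without WT library 45 or 46 the gene no longer passed, although its log2 fold change stayed at 0.47 and 0.46.

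The other mevalonate genes lay close to WT in libraries 72 to 76. Hmgcs1 was at 803, 930, 757 and 921 CPM in WT mice, at 1072, 684 and 424 CPM in libraries 41 to 43, and at 724, 880, 670, 833 and 1245 CPM in libraries 72 to 76. Both MFN2 runs overlapped the WT range, with libraries 42, 43, 72 and 74 below it and libraries 41 and 76 above it. The 2 kinases that phosphorylate mevalonate in turn, Mvk and Pmvk, had log2 fold changes of 0.11 ± 0.11 and -0.11 ± 0.077 in libraries 72 to 76. The decarboxylase Mvd had a value of 0.070 ± 0.13, and Fdps one of -0.011 ± 0.24, which was 0.056 with scaling by library size alone. None of these 5 passed the FDR, beside 23.8% of all genes tested.

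Of the 11 genes from squalene to cholesterol, 0 passed in any of the 3 comparisons with WT as first run. Among all genes tested, 0.0% passed with all MFN2 mice, 0.00658% with libraries 41 to 43 and 23.8% with libraries 72 to 76. In libraries 72 to 76 the largest values were those of Lss, the cyclase that closes the sterol rings, at 0.28 ± 0.19, and Ebp, the sterol isomerase, at 0.27 ± 0.13. Their adjusted p was 0.332 and 0.144 (edgeR with Benjamini-Hochberg adjustment), and Ebp passed with no filter on low counts, at 0.26. Lss was at 103, 121, 103 and 114 CPM in WT mice, at 137, 87.9 and 51.1 CPM in libraries 41 to 43, and at 108, 129, 100, 129 and 202 CPM in libraries 72 to 76. The high value of library 76 and the low value of library 43 were shared by most genes of this branch. Cyp51, Msmo1, Nsdhl and Hsd17b7, which remove and reshape the methyl groups of lanosterol, had values of 0.21 ± 0.15, 0.11 ± 0.14, 0.069 ± 0.12 and 0.080 ± 0.096, and Tm7sf2 one of 0.080 ± 0.13. Fdft1 and Sqle, which make squalene and its epoxide, were at 0.15 ± 0.072 and -0.030 ± 0.11, and with scaling by library size alone Fdft1 passed the FDR at 0.22 while Sqle turned to 0.039. Sc5d and Dhcr7, which act near the end of the pathway, were at -0.14 ± 0.12 and -0.14 ± 0.13. With library 76 left out, Sc5d and Dhcr7 passed the FDR at -0.24 and -0.26.

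**Figure D3:**
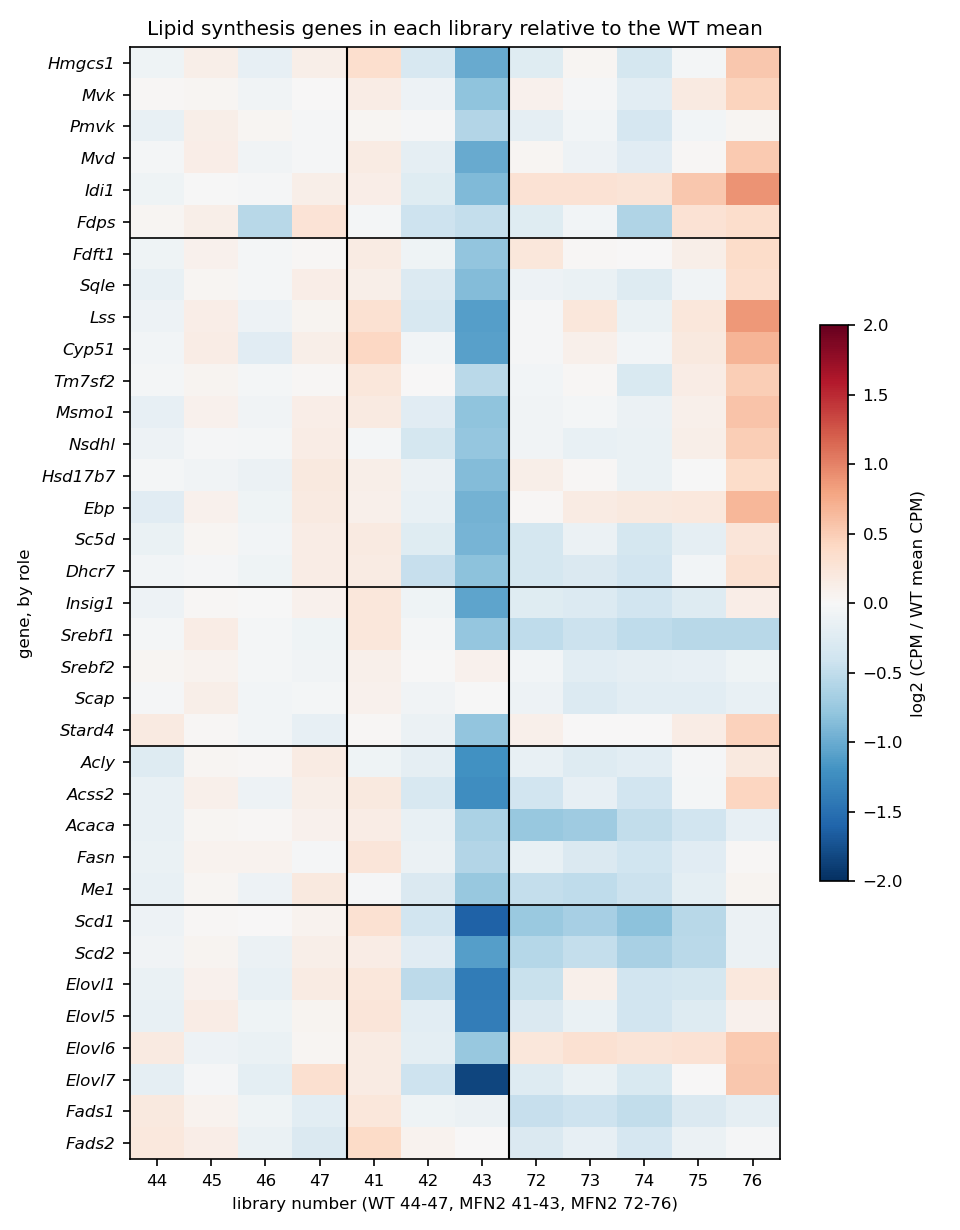
Each of the 35 members (rows, by role) in each library (columns: WT 44 to 47, MFN2 41 to 43, MFN2 72 to 76), coloured by log2 of its CPM over the WT mean. Library 43 is blue for most genes, library 76 is red in the sterol branch at the top, and Srebf1, Acaca, Scd1, Scd2 and Fads1 are blue across libraries 72 to 76.

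Library 43 gave the lowest of the 12 values for 29 of 35 members, beside 28.7% of all genes tested, and library 76 the highest for 21 of 35, beside 6.61%. For the 17 genes of the sterol branch these numbers were 16 and 16. The ratio of library 43 to the WT mean had a median of 0.565 over the members, from 0.281 for Elovl7 to 1.06 for Srebf2. The ratio of library 76 to the WT mean had a median of 1.27, from 0.678 for Srebf1 to 1.86 for Idi1. The 6 members that were not lowest in library 43 were Fdps, Srebf2, Scap, Acaca, Fads1 and Fads2.

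Markers of oligodendrocytes were set beside the members. The 12 mature oligodendrocyte markers summed to 29520 ± 3710 CPM (SD, n = 4) in WT mice, to 36029, 23182 and 9108 CPM in libraries 41, 42 and 43, and to 24792, 30210, 26127, 26562 and 37647 CPM in libraries 72 to 76. All 12 were lowest in library 43, and 5 of 12 were highest in library 76. Their median log2 difference from the WT mean was -1.54 in library 43, 0.27 in library 41, 0.18 in library 76 and -0.17 in library 75, and that of the 17 sterol pathway genes was -0.80, 0.15, 0.43 and 0.11 in the same libraries. By this median both groups were lowest in library 43, but the markers were highest in library 41 (their sum in library 76) and the sterol pathway genes in library 76, and in library 75 they lay on opposite sides of WT. What part oligodendrocyte content had in the members' levels was not tested. With the oligodendrocyte mean as a covariate in the comparison of all 8 MFN2 mice with WT, the median log2 fold change of the 35 members went from -0.11 to -0.031, that of the 17 sterol pathway genes from -0.026 to 0.084 and that of the 13 fatty acid genes from -0.21 to -0.099. Leaving out library 43 alone, with no covariate, gave -0.064, 0.062 and -0.12 for the same 3 medians. They were -0.18, -0.11 and -0.28 without library 76, and -0.26, -0.26 and -0.31 with a term for the run of library numbers. That term leaves only libraries 41 to 43 to be set against WT. In RNA of whole cord, fewer cells of a type and less RNA per cell cannot be told apart. In libraries 72 to 76 against WT, 0 of 12 mature oligodendrocyte markers passed the FDR, with a median log2 fold change of -0.12, beside 23.8% of all genes tested. Of 9 markers of oligodendrocyte precursors and premyelinating cells 2, Gpr17 and Itpr2, were higher, beside 11.1% of all genes, and the difference between the lists was not tested. The latter list summed to 1007 ± 124 CPM in WT mice, with Bcas1 as its most abundant gene.

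**Figure D4:**
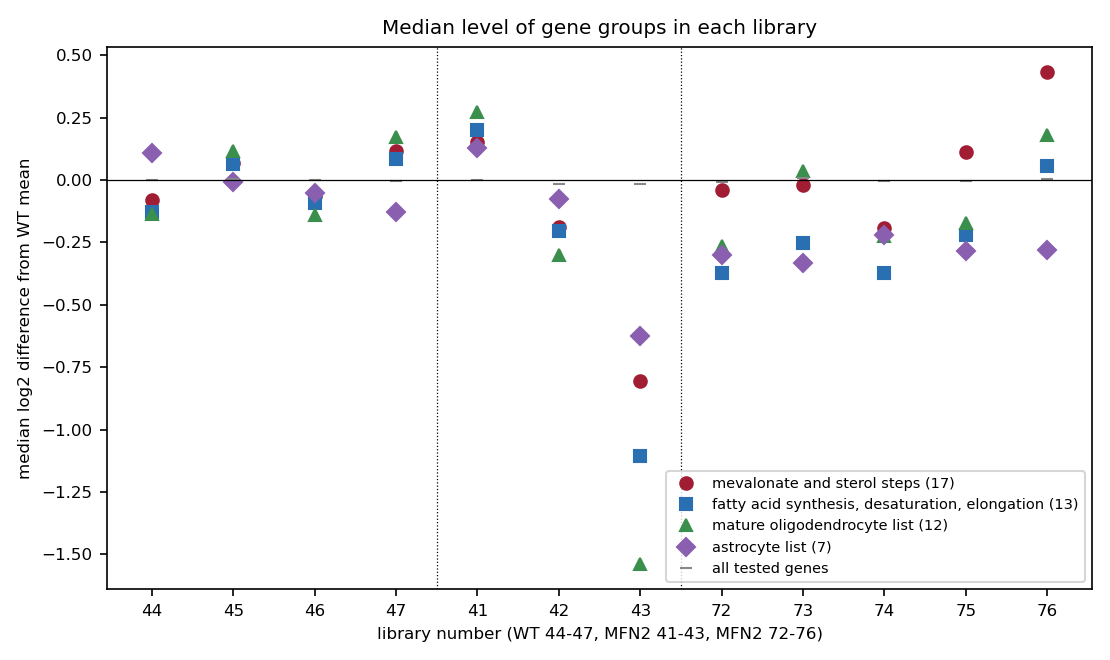
Median log2 difference from the WT mean (vertical axis) of 4 gene groups and of all tested genes in each of the 12 libraries (horizontal axis). The sterol branch (circles) is at -0.80 in library 43 and 0.43 in library 76, mature oligodendrocyte genes (triangles) are at -1.54 and 0.18, and the fatty acid genes (squares) are below 0 in libraries 72 to 75.

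The promoters of 28 of the 35 members were matched by symbol in RefSeq sequences on GRCm38.p6, which run from 250 bases before to 50 after each start, with several starts for some genes. The letters CCAAT, the box bound by NF-Y, a partner of the sterol regulatory element binding proteins, were found on either strand in 23 of 28 members (82.1%) and in 41.1% of 27025 genes. They were present in 14 of 14 members of the sterol branch, in 3 of 4 regulators (not Scap) and in 6 of 10 fatty acid genes (not Acaca, Elovl6, Elovl7 and Fads2). The core of the sterol regulatory element, TCACNCCAC, was found in 1 of 28 members, Hmgcs1 (3.57%), and in 1.44% of all genes. The letters GGGCGG of the Sp1 box were found in 82.1% of members and 38.2% of all genes, and CACGTG, the E-box, in 21.4% and 8.09%. The 4 promoters below show the gene with both motifs (Hmgcs1), the 2 genes that were higher in libraries 72 to 76 (Idi1 with CCAAT boxes and Elovl6 without) and 1 of the 2 regulators that were lower (Srebf1, at the start of 3 that has a CCAAT box nearest to it). Capitals mark CCAAT, its reverse complement ATTGG, and TCACNCCAC.
Hmgcs1, chr13:119690101-119690400, plus strand: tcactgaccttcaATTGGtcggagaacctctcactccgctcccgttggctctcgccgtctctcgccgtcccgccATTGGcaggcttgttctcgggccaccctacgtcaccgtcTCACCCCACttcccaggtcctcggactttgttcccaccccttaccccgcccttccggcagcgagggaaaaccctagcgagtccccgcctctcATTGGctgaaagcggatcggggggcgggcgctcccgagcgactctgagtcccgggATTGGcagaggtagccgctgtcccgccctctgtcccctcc
Idi1, chr13:8885356-8885655, plus strand: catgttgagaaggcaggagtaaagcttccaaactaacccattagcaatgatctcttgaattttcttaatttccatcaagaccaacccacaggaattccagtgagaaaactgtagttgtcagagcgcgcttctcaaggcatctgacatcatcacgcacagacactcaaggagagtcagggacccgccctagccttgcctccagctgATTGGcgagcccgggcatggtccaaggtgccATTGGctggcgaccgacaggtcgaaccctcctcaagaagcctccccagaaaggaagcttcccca
Elovl6, chr3:129532136-129532435, plus strand: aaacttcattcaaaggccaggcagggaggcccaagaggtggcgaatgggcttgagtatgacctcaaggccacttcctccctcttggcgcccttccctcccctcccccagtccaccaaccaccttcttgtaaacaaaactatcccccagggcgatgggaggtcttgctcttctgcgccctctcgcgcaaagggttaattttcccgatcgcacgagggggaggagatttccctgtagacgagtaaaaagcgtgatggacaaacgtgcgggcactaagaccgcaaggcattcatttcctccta
Srebf1, chr11:60210422-60210721, minus strand: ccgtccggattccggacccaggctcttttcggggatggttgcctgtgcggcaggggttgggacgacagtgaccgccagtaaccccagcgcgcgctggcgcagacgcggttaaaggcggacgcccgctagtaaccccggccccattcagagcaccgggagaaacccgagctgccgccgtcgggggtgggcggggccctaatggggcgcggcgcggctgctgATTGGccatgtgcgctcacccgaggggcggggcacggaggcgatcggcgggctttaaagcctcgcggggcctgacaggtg
In Hmgcs1 the sterol element starts 137 bases before the start and 4 CCAAT boxes surround it, and in Idi1 the 2 boxes begin 45 and 14 bases before the start. A match is a stretch of letters and not a measured site, and no library reports binding.

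The regulator Srebf1 had the lowest adjusted p of the 35 members. Srebf1, whose products drive genes of fatty acid synthesis, lies on the minus strand at chr11:60199089-60222581. It was at 71.9, 82.3, 71.9 and 69.9 CPM in WT mice, at 86.6, 72.1 and 43.1 CPM in libraries 41 to 43, and at 52.3, 54.9, 52.2, 50.6 and 50.2 CPM in libraries 72 to 76. The 5 libraries of the second run lay close to each other and below every WT library, while those of the first run ran from above to below the WT range. The log2 fold change of libraries 72 to 76 was -0.51 ± 0.056 (SE), or 0.702-fold, with an adjusted p of 0.00021, and that of libraries 41 to 43 was -0.13 ± 0.21, with an adjusted p of 0.822 (both by edgeR with Benjamini-Hochberg adjustment). Without library 43 the first-run value turned to 0.11. Srebf1 was as low in library 76 as in libraries 72 to 75, although the sterol branch was high in library 76.

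Scap, the sterol sensor that escorts both binding proteins, lies at chr9:110333288-110384950 on the plus strand. It was at 71.5, 78.8, 70.4 and 71.1 CPM in WT mice, at 77.6, 69.8 and 72.4 CPM in libraries 41 to 43, and at 68.0, 60.5, 63.1, 63.1 and 66.0 CPM in libraries 72 to 76. The second run lay below all 7 libraries of the first run, with a log2 fold change against WT of -0.19 ± 0.053 and an adjusted p of 0.023 (edgeR with Benjamini-Hochberg adjustment). The call was lost without library 73, 74, 75 or 45, and with scaling by library size alone, where the log2 fold change was -0.12. Srebf2, whose product drives the sterol genes, fell just outside the threshold, with a log2 fold change of -0.14 ± 0.049 and an adjusted p of 0.051 in the same test. It passed with DESeq2 (adjusted p = 0.0329), with the current edgeR quasi-likelihood test (adjusted p = 0.049), and without library 72 or WT library 47, and its adjusted p over all alternatives ran up to 0.287. Insig1 and Stard4, a carrier of cholesterol between membranes, were at -0.20 ± 0.090 and 0.15 ± 0.096 and did not pass. Insig1 passed without library 76, at -0.28, and with no filter on low counts, at -0.21.

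Of the 5 genes of fatty acid synthesis, Acaca passed in libraries 72 to 76, beside 23.8% of all genes tested. It lies at chr11:84129672-84401651 on the plus strand, and was at 149, 171, 169 and 176 CPM in WT mice, at 184, 150 and 108 CPM in libraries 41 to 43, and at 98.4, 102, 118, 128 and 148 CPM in libraries 72 to 76. The second run lay below WT, by a narrow margin for library 76, with a log2 fold change of -0.49 ± 0.11 and an adjusted p of 0.0106 (edgeR with Benjamini-Hochberg adjustment). In libraries 41 to 43 the value was -0.16 ± 0.17 (adjusted p = 0.718 in the same test), and it turned to 0.015 without library 43. Fasn and Me1 were at -0.20 ± 0.078 and -0.30 ± 0.12 in libraries 72 to 76, with adjusted p of 0.0785 and 0.0904 in that test, and both passed without library 76 and with no filter, Fasn also without WT library 44. Acly and Acss2, which make acetyl-CoA from citrate and from acetate, were at -0.083 ± 0.10 and -0.078 ± 0.16.

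Both stearoyl-CoA desaturases were lower in libraries 72 to 76. Scd2, at chr19:44293674-44306864 on the plus strand, was at 2916, 3199, 2816 and 3336 CPM in WT mice, at 3391, 2619 and 1422 CPM in libraries 41 to 43, and at 2057, 2210, 1964, 2120 and 2834 CPM in libraries 72 to 76. Library 76 overlapped the lowest WT library, and the other 4 of the run lay below all WT libraries. The log2 fold change was -0.46 ± 0.10, or 0.728-fold, with an adjusted p of 0.00788 (edgeR with Benjamini-Hochberg adjustment). Scd1, at chr19:44394455-44407879 on the minus strand, was at 652, 716, 704 and 737 CPM in WT mice, at 867, 540 and 229 CPM in libraries 41 to 43, and at 419, 446, 398, 476 and 649 CPM in libraries 72 to 76. All 5 lay below WT, with library 76 only just so, at a log2 fold change of -0.56 ± 0.13 and an adjusted p of 0.0111 in the same test. The same 2 genes gave -0.30 ± 0.26 and -0.36 ± 0.37 in libraries 41 to 43, where library 41 was above and library 43 far below every WT library. Without library 43 the Scd1 value turned to 0.0086. Apart from library 43, the Scd2 levels of that run, 3391 and 2619 CPM, lay above and below the WT range.

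**Figure D5:**
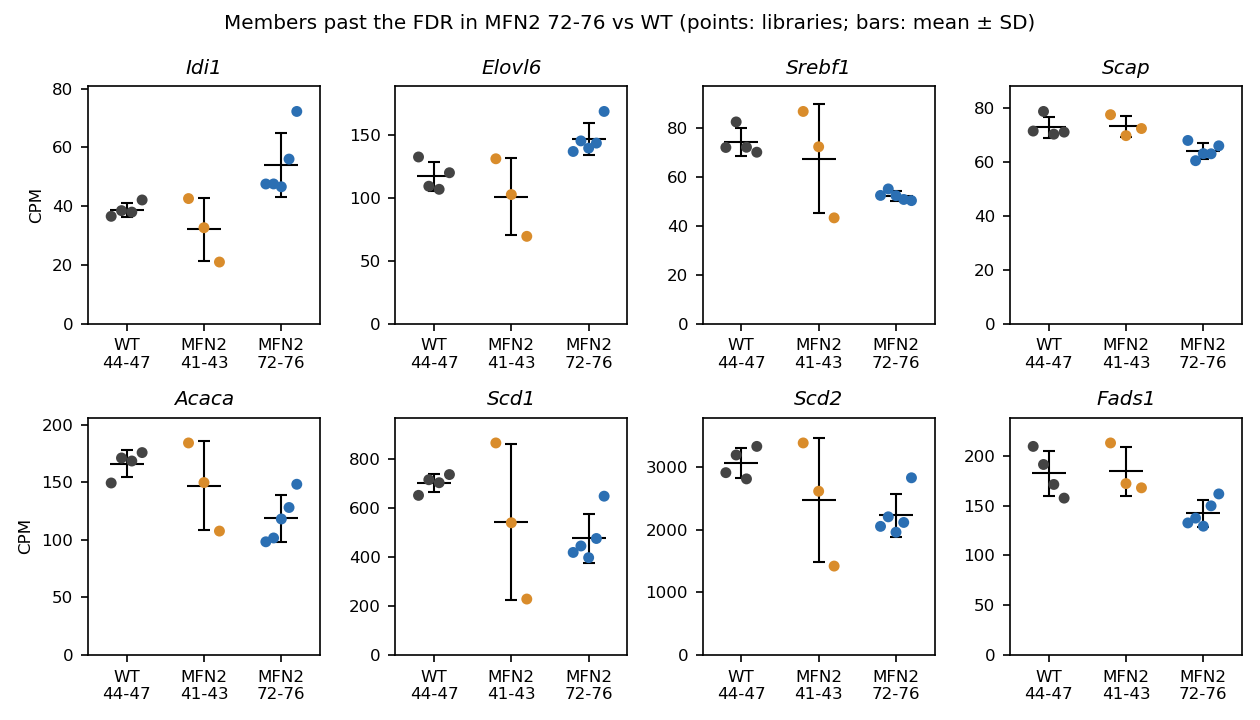
CPM of the 8 members that passed the FDR in libraries 72 to 76 against WT, with 1 point per library, a horizontal bar at the mean and error bars at the SD, for WT (n = 4), MFN2 41 to 43 (n = 3) and MFN2 72 to 76 (n = 5). Idi1 and Elovl6 have means above WT in the second run and the other 6 genes means below it, while the low point in the middle column of each panel but Scap is library 43, at 43.1 CPM for Srebf1.

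Fads1 and Fads2 encode the delta-5 and delta-6 desaturases that make polyunsaturated fatty acids, and lie side by side on chromosome 19. Fads1, at chr19:10182888-10196877, was at 209, 191, 171 and 157 CPM in WT mice, at 213, 172 and 168 CPM in libraries 41 to 43, and at 133, 137, 129, 150 and 162 CPM in libraries 72 to 76. The second run lay below the other MFN2 libraries and overlapped WT only in that library 76 was above WT library 47. Against WT its log2 fold change was -0.36 ± 0.086, with an adjusted p of 0.0115 (edgeR with Benjamini-Hochberg adjustment). Fads2 was at -0.18 ± 0.10 and did not pass, but did with no filter, at -0.19.

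Elovl6, which elongates saturated C16 chains made by Fasn, moved the other way. It lies at chr3:129532355-129638495 on the plus strand and was at 132, 109, 107 and 120 CPM in WT mice, at 131, 102 and 69.3 CPM in libraries 41 to 43, and at 137, 145, 139, 143 and 168 CPM in libraries 72 to 76. All 5 libraries of the second run were above WT, with a log2 fold change of 0.32 ± 0.076, or 1.25-fold, and an adjusted p of 0.0100 (edgeR with Benjamini-Hochberg adjustment). The elongases of very long chains Elovl1 and Elovl7 were at -0.15 ± 0.14 and 0.00070 ± 0.19, and Elovl5, which elongates polyunsaturated chains, at -0.19 ± 0.091. None of these 3 passed, although Elovl5 did without library 76, at -0.26, and with no filter, at -0.20. Over the 35 members, the libraries did not overlap WT for 2 that were higher and 4 that were lower, beside 9.5% and 10.3% of all genes tested.

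The 2 runs of MFN2 libraries were also compared with each other, which is the test of whether they differed from WT by different amounts. In this comparison 0 of 35 members passed the FDR in edgeR's quasi-likelihood test, beside 2.19% of 15633 genes, with 7 at an unadjusted p under 0.05 beside 24.6% of all genes. DESeq2 called 5 of them, namely Idi1, Srebf2, Scap, Fads1 and Fads2, but it also called far more genes in all, 1795. Without library 43, edgeR called 2375 genes in all. The members among them were Srebf1, Fads1 and Fads2, all lower in libraries 72 to 76, at log2 fold changes of -0.62, -0.45 and -0.43. The median over the members went from 0.25 to -0.030 with that library left out, to 0.50 without library 41 and to 0.10 without library 76. The median of the 5 genes of sterol sensing and transport was -0.21 both with and without library 43. For Idi1, Elovl6, Scap, Acaca, Scd1 and Scd2 a difference between the runs was not shown by edgeR either with or without it.

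A wider list of 55 genes of the same pathways gave 5 higher and 16 lower in libraries 72 to 76 against WT (38.2%, beside 23.8% of all genes), and 0 past the FDR in the 8 MFN2 against the 4 WT mice, with 13 at an unadjusted p under 0.05 (15.0% of all genes tested were). In libraries 72 to 76, 11.1% of all genes tested were higher and 12.7% lower. Of 17 other fatty acid genes, 2 were higher and 8 lower (58.8% called). Fabp5, a fatty acid binding protein, was at 211, 168, 157 and 234 CPM in WT mice and at 71.9, 78.0, 67.5, 79.0 and 170 CPM in libraries 72 to 76, with a log2 fold change of -1.05 ± 0.30 (adjusted p = 0.042, edgeR with Benjamini-Hochberg adjustment). Library 76 lay within the WT range and the other 4 far below it. Acacb, the mitochondrial acetyl-CoA carboxylase, was at 17.4 ± 2.92 CPM (SD, n = 4) in WT mice and 9.51 ± 1.5 CPM (n = 5) in libraries 72 to 76, with a log2 fold change of -0.87 ± 0.13. Thrsp, a lipogenic protein, and Tecr, the reductase of the elongation cycle, were at -0.54 ± 0.12 and -0.38 ± 0.048.

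Of 17 genes of sterol uptake, efflux and turnover, 0 were higher and 7 lower (41.2% called, beside 23.8% of all genes tested), with a median log2 fold change of -0.19. These were Lrp1 and Vldlr, receptors of lipoproteins, Npc1 and Npc2, which move cholesterol out of lysosomes, the exporters Abcg1 and Abcg4, and Soat1, which esterifies cholesterol. Their log2 fold changes ran from -0.37 for Abcg1 to -0.19 for Vldlr. Apoe, the most abundant gene of the list, was at 1430 CPM on average in WT mice, with a value of -0.0056. Of 11 other genes of sterol synthesis and its control, Mbtps1 and Pgrmc1 were higher and Mbtps2 was lower (27.3% called), with Pgrmc1 at 0.38 ± 0.11. Of 10 genes for the galactolipids and sphingolipids of myelin, Cers4, a ceramide synthase, was higher at 0.45 ± 0.063 and 0 were lower. Ugt8a, which makes galactosylceramide, was at 549 CPM on average in WT mice and 162 CPM in library 43, with a value of 0.097 in libraries 72 to 76.

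Markers of other cells were counted in the same way. In libraries 72 to 76, 5 of 7 astrocyte markers were lower than in WT mice, beside 12.7% of all genes tested (11.1% were higher), and the list summed to 5868 to 7253 CPM there against 8178 ± 447 CPM (SD, n = 4) in WT mice. Slc1a2, the most abundant of them, was at -0.16 ± 0.050, and Gfap at -1.08 ± 0.26. All 6 microglia markers were lower too, with a median log2 fold change of -0.44 and a sum of 130 to 162 CPM against 199 ± 22.1 CPM in WT mice. The median log2 difference of the 13 fatty acid genes from the WT mean was -0.37, -0.25, -0.37, -0.22 and 0.056 in libraries 72 to 76. That of the astrocyte markers was -0.30, -0.33, -0.22, -0.28 and -0.28, and that of the microglia markers -0.42, -0.42, -0.34, -0.58 and -0.33. All 3 groups were thus below WT in libraries 72 to 75, and in library 76 the markers were below it and the fatty acid genes were not. The part of these cells in the members' levels was not tested. The 6 motor neuron markers, led by Prph, and the 7 neuron markers, led by Nefm, had medians of -0.0072 and 0.034, with 0 of 6 and 3 of 7 past the FDR, beside 23.8% of all genes tested.

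Marker lists of tissues outside the cord had high sums in single libraries. The 8 Schwann cell markers, led by Pmp22, summed to 346 CPM in library 43 and 328 CPM in library 73, against 71.3 ± 13.8 CPM in WT mice, with Pmp2 at 0 in 11 of the 12 libraries. The 6 skeletal muscle markers, led by Myh4, summed to 232 CPM in library 73 and to 226 CPM in WT library 47, while the other 10 libraries lay between 2.12 and 43.9 CPM, and Ckm was at 0 in at least 1 library. The 7 adipocyte markers, fat cells being rich in Scd1 and Fasn too, summed to 0.706 to 11.4 CPM over the 12 libraries, with Adipoq, Cidec, Lep and Retn at 0 in at least 1 of them. Fabp4 was the most abundant at 2.99 CPM on average in WT mice. In the same 12 libraries Scd1 was at 229 to 867 CPM. The endothelial (Flt1), meningeal fibroblast (Col1a1) and blood (Hbb-bs) lists had medians of -0.075, -0.14 and 0.35 in libraries 72 to 76, with 1 of 5, 0 of 5 and 1 of 5 tested genes past the FDR, beside 23.8% of all genes. Hoxd11 of the caudal Hox list was at 0 in at least 1 library.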

How the data were processed

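RNA of the lumbar spinal cord was sequenced from 8 MFN2 and 4 WT mice. Per the labels and the study's methods, RNA was extracted with RNeasy columns and made into libraries with a SMARTer stranded total RNA kit (Clontech). The study's supplement describes poly(A) sequencing, and its main text total RNA sequencing. Reads were demultiplexed with bcl2fastq, trimmed, aligned with STAR to GRCm38 (GRCm38.p6 in the submitters' processing notes) and tested by the authors with edgeR. The deposited values are whole-number counts per Ensembl gene, not normalized, with 1 file per library. How reads were assigned to genes, and with which strand setting, is not given in the sources used here. Of 49548 IDs, 49289 matched a symbol in GENCODE M21. Every library has its own number, and nothing but 1 library per mouse says how the samples were taken.

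Genes above 1 CPM in at least 3 of the libraries fitted were kept. After TMM scaling, the legacy form of edgeR's quasi-likelihood test (edgeR 4.0.16, R 4.3.3) was run with the robust option. P-values were adjusted by the Benjamini-Hochberg method over all genes tested, at an FDR of 0.05, and all 35 members passed the filter in each of the 4 comparisons. Standard errors of log2 fold changes (prior count 2) were derived from the F statistic, and CPM per kb used the merged exons of each gene. No pair of libraries of a genotype matched within sampling noise, with a chi-square of at least 5.34 per gene. On simulated counts, with 200 genes changed by a log2 fold change of 1 at a dispersion of 0.05, edgeR recovered 93.5% for the 8 MFN2 against the 4 WT libraries, and 60%, 78% and 75% for libraries 41 to 43 against WT, 72 to 76 against WT and 72 to 76 against 41 to 43. Smaller changes, such as those of the members, were not simulated. The simulated libraries of a group shared the same mean for each gene, with no difference between runs and no library set apart as library 43 was. These shares therefore do not give the power of the tests on the real counts. The alternatives were no filter, edgeR's own filter, scaling by library size alone, RLE scaling, DESeq2 1.42.0, the current edgeR test, each library left out, and, for all MFN2 mice, the run of library numbers or the oligodendrocyte mean as a covariate. With the run as a covariate, the genotype term compares libraries 41 to 43 with WT, because libraries 72 to 76 have no WT library in their run.

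The members, gene lists and alternatives were chosen with earlier results of these data known. All 35 members are named, with full statistics for those past the FDR, the 5 with the lowest p in all MFN2 against WT mice, and the most and least abundant of each role. Of the other pathway genes, the 6 past the FDR with the largest change were to be named with values. The remaining ones, such as Lrp1, Mbtps1, Gpr17 and Itpr2, were chosen after their values were seen, as part of a complete account of a short count. A few list genes are left unnamed here but count in the list totals.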

Additional observations from a re-analysis of the deposited data

Results flagged for a closer look

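Of 70 groups of CPM values tested for a library set apart from its group (35 members in WT and in MFN2 mice), 3 were picked out, where chance alone gives about 3.5. In WT mice, library 45 was high for Srebf1, at 82.3 CPM against 69.9 to 71.9 CPM, a gap of 0.836 of the range. It was also high for Scap, at 78.8 CPM against 70.4 to 71.5 CPM, a gap of 0.863 of the range. Without library 45, Srebf1 still passed the FDR in libraries 72 to 76 and Scap did not. In MFN2 mice, library 43 was low for Acly, at 173 CPM against 333 to 456 CPM in the other 7, a gap of 0.565 of the range.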

How the results depend on the processing

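No paired analysis was possible because no library number occurs in both genotypes. Under every alternative listed above, 0 members were called in the 8 MFN2 against the 4 WT mice and in libraries 41 to 43 against WT. In libraries 72 to 76 against WT the 8 members called became 14 without a filter and 6 to 14 with 1 library left out (14 without library 76, 6 without WT library 45), and Srebf1, Acaca, Scd1, Scd2, Elovl6 and Fads1 were called in each setting run. Against libraries 41 to 43, DESeq2 called 5 members, and 0 to 3 were called with 1 library left out (3 without library 43). Over all genes, the 0 calls of MFN2 against WT became 200 with DESeq2 and 8 with the oligodendrocyte mean as a covariate, with 0 to 19 with 1 library left out (19 without library 43). The 1 call of libraries 41 to 43 became 0 without a filter and 5 with DESeq2, with 0 to 2 on leaving 1 out. The calls ran from 2350 to 4517 in libraries 72 to 76 against WT (2350 without WT library 45), and from 31 to 2375 between the runs (2375 without library 43), where DESeq2 made 1795. Scaling by library size alone moved 1746 higher of 3746 calls in libraries 72 to 76 against WT to 2822 of 4167. The cause of these changes was not tested.

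None of the members' log2 fold changes that changed sign had passed the FDR in the comparison concerned. A term for the number run leaves only libraries 41 to 43 to be set against WT, so it gives no separate check of that comparison. With it in the fit of the 8 MFN2 mice, the values became Mvk -0.20, Idi1 -0.27, Fdft1 -0.18, Lss -0.26, Cyp51 -0.11, Tm7sf2 -0.064, Ebp -0.26, Srebf2 0.057, Scap 0.0068, Stard4 -0.26, Elovl6 -0.21, Fads1 0.015 and Fads2 0.17. With the oligodendrocyte mean they became Hmgcs1 0.068, Mvd 0.076, Msmo1 0.11, Nsdhl 0.027, Hsd17b7 0.084 and Elovl7 0.019. With scaling by library size alone they became Mvd 0.0081, Msmo1 0.044, Hsd17b7 0.025 and Fads2 0.0051, and in libraries 72 to 76 Fdps 0.056 and Sqle 0.039. Elovl7 there was at -0.0080 without a filter and -0.0038 with edgeR's own filter, and Insig1 between the runs at -0.0048 and -0.0079. Leaving out 1 library at a time gave, over all MFN2 mice, Hmgcs1 -0.17 to 0.033, Mvk -0.072 to 0.088, Mvd -0.14 to 0.053, Fdft1 -0.017 to 0.12, Lss -0.054 to 0.21, Cyp51 -0.011 to 0.21, Tm7sf2 -0.049 to 0.095, Msmo1 -0.11 to 0.078, Nsdhl -0.18 to 0.0017, Hsd17b7 -0.091 to 0.062, Ebp -0.012 to 0.19, Stard4 -0.062 to 0.10 and Fads2 -0.12 to 0.040. For libraries 41 to 43 against WT, where leaving out library 43 turned the sign of all but Scap and Fads1, the ranges were Hmgcs1 -0.60 to 0.049, Mvk -0.39 to 0.034, Pmvk -0.25 to 0.025, Mvd -0.50 to 0.012, Fdft1 -0.37 to 0.052, Lss -0.64 to 0.035, Cyp51 -0.45 to 0.21, Tm7sf2 -0.21 to 0.13, Hsd17b7 -0.41 to 0.017, Insig1 -0.47 to 0.087, Srebf1 -0.34 to 0.11, Scap -0.012 to 0.060, Acaca -0.34 to 0.015, Fasn -0.31 to 0.078, Scd1 -0.85 to 0.0086, Elovl5 -0.66 to 0.041, Elovl6 -0.42 to 0.0037 and Fads1 -0.077 to 0.11. For libraries 72 to 76 against WT they were Hmgcs1 -0.13 to 0.11, Mvd -0.057 to 0.14, Fdps -0.16 to 0.11, Sqle -0.13 to 0.027, Tm7sf2 -0.032 to 0.17, Msmo1 -0.023 to 0.17, Nsdhl -0.047 to 0.13 and Elovl7 -0.16 to 0.13. Between the runs they were Hmgcs1 -0.023 to 0.64, Pmvk -0.14 to 0.15, Cyp51 -0.0047 to 0.68, Tm7sf2 -0.049 to 0.31, Sc5d -0.13 to 0.40, Dhcr7 -0.030 to 0.49, Insig1 -0.28 to 0.29, Acss2 -0.046 to 0.63, Fasn -0.28 to 0.13, Me1 -0.15 to 0.20, Scd1 -0.57 to 0.30, Scd2 -0.44 to 0.14, Elovl1 -0.057 to 0.73 and Elovl5 -0.23 to 0.48. Where a group was left with 2 libraries, the fit pooled their spread with that of the other group.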
